A study of Arabidopsis thaliana with 6 samples.

Results

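The probe sets described here form the block of the Affymetrix ATH1 array that was laid out for the genes of the chloroplast and mitochondrial genomes of Arabidopsis thaliana. They are defined by number alone: the 150 probe sets with consecutive numbers in that block, of 22810 on the array. After 64 control probe sets were left out, 22746 were tested, of which 22596 lie outside the block. Total RNA came from whole seedlings of the Col-0 ecotype, in the T3 generation, and all of them, mock included, carry the XVE system for RPXΔC. In that system the constitutively expressed chimeric factor XVE enters the nucleus once estradiol binds it and switches on RPXΔC, derived from the NAC transcription factor RPX, through a LexA promoter. Seedlings aged 14 days, grown in 16 h light and 8 h dark, spent a night in liquid medium and were collected after 2 h with 10 µM estradiol or with mock, in 3 biological replicates each. One label gives the mock as ethanol and another as medium without inducer, so the vehicle is not settled. Seedlings without the construct are not among the samples, so RPXΔC and estradiol itself cannot be told apart.

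Chloroplasts and mitochondria keep small genomes of their own. The chloroplast genome encodes core subunits of the photosystems, the cytochrome b6f complex, the ATP synthase and the NDH complex, the large subunit of Rubisco, and part of the machinery that expresses them. Its genes are read by a bacterial-type polymerase, whose core subunits it encodes itself and whose sigma factors come from the nucleus, and by a phage-type polymerase encoded in the nucleus. Many of its genes lie in operons, and the long precursors are cut, spliced and edited. The mitochondrial genome encodes subunits of the respiratory chain and proteins of cytochrome c maturation. Organelle messages mostly lack the stable poly(A) tail of nuclear ones, and polyadenylation there is known to mark RNA for decay. The labelling kit used here primes from poly(A), so the share of each organelle transcript that was labelled is not known.

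The annotation bore out the organelle label for a majority of the block. Of the 150 probe sets, 69 list 1 chloroplast gene and 8 list both copies of a gene of the inverted repeat, which makes 77 chloroplast probe sets. A further 12 list 1 mitochondrial gene and 1 lists 2 of them. The block also holds 10 probe sets for ordinary nuclear genes of chromosome 2, among them YAB5, which encodes a YABBY transcription factor of leaf polarity, and AT2G26500, the nuclear gene of a small cytochrome b6f subunit. Another 5 list AT2G07 loci of chromosome 2, the chromosome on which Col-0 is known to carry a copy of mitochondrial DNA. The remaining 45 have no gene listed. Conversely, 11 probe sets that list a mitochondrial gene lie outside the block. Names refer to the TAIR10.1 annotation, and a probe set that lists several genes is given by its number.

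All arrays share 1 trimmed mean, and their median signals lay between 35.7 and 38.7. Estradiol replicate 3 stood apart in the ratio of 3' to 5' signal of control transcripts, which rises as RNA becomes shorter. For actin it was 15.2, where the other arrays gave 4.37 to 6.11, and for GAPDH 1.68, where they gave 0.969 to 1.15. Mock replicates 1 and 2 had a 25S rRNA signal of 302 and 286, against 918 to 1534 on the other arrays. No detection calls were used, and it is unknown which of the dim members exceed background. Nuclear markers of the shoot and root were measured for 2 of 8 and 3 of 4 listed genes, and none passed the threshold. All had a negative log2 difference, estradiol minus mock, from -0.27 to -0.15 for shoot and from -0.27 to -0.08 for root. LHCB4.2, an antenna gene of leaves, had a mean signal of 2445, and PYK10, a root gene, 2332. In such whole seedlings fewer organelles or cells of a type and less RNA per cell cannot be told apart.

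Chloroplast probe sets were bright as a group, and the other members were not. The median over probe sets of the mean signal was 263 for the 77 chloroplast probe sets and 37.4 for all 22746 tested. It was 25.04 for the 13 mitochondrial ones, 16.2 for the 10 of chromosome 2, 15.2 for the 5 AT2G07 loci and 8.92 for the 45 with no gene listed. Of the chloroplast probe sets 63 of 77 lay above the median of all, against 4 of the 13 mitochondrial ones. A mean signal under the pseudocount of 16 was found in 50 of the 150 members, 31 of them with no gene listed and 8 chloroplast. Probe sets differ in how strongly they bind, so these medians describe the array's signals and do not rank transcripts by abundance.

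Probe sets for genes of one complex spanned nearly the whole range of signal. The chloroplast genes with the highest mean signals were atpB (4514) and atpE (4449), which encode the beta and epsilon subunits of the ATP synthase, and psbM (3023), a small subunit of photosystem II. The gene atpI, which encodes another subunit of the same ATP synthase, had 4.64, in the lowest of 4 equal bins of all probe sets by mean signal. Next after psbM came ndhI (2416) and psaB (1836), and the other low ones were ndhF (2.22), rpoB (7.30) and ndhG (10.6). Among the mitochondrial genes ccmFN1, of cytochrome c maturation, was at 92.6 and matR, a maturase gene, at 1.11.

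The chloroplast probe sets varied more between arrays of one treatment than other probe sets of like brightness. The spread is given as the standard deviation of log2(signal + 16) within groups. In the brightest of 4 equal bins of probe sets, with mean signals above 115, its median was 0.378 over 46 chloroplast probe sets (quartiles 0.222 and 0.524) and 0.187 over 5633 probe sets outside the block (quartiles 0.134 and 0.258). The ratio of the medians was 2.02, and 31 of the 46 lay above the upper quartile of the others. The same bin held 6 members with no gene listed, with a median of 0.391, and 2 of chromosome 2, with 0.210. Within it the median signal was 723 for chloroplast and 247 outside the block, so brightness was matched only loosely. In the next bin down, with mean signals of 37.4 to 115, the medians were 0.466 over 17 chloroplast probe sets and 0.192 over 5657 others. The 13 mitochondrial probe sets, with 0 in the brightest bin, had a median of 0.142, but most are dim and the pseudocount damps the spread of dim signals. The 4 in the bin from 37.4 to 115 had 0.251, above the 0.192 of the others there, and with a pseudocount of 1 the 13 had 0.320 against 0.304 outside the block. Probe sets on 1 array share that array's RNA and are not independent, so no test is given for these medians.

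**Figure D1:**
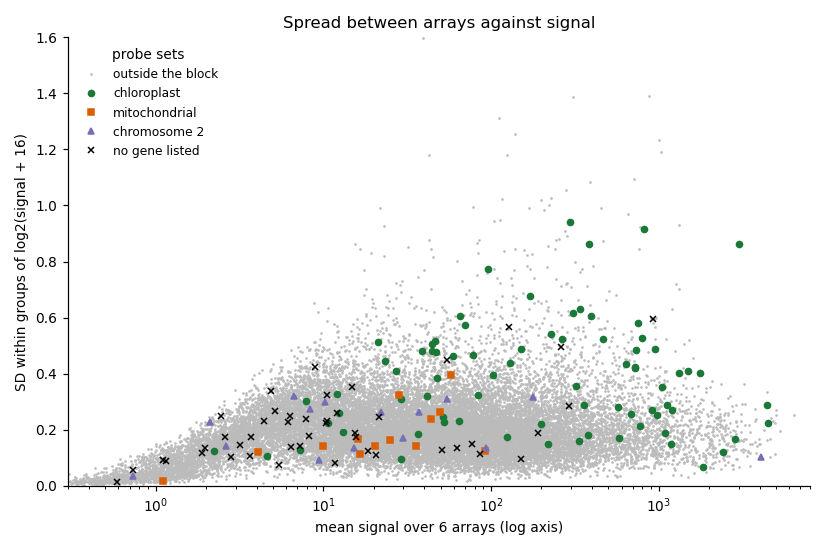
Spread between arrays (standard deviation of log2(signal + 16) within groups) against the mean signal over 6 arrays, on a log axis, 1 point per probe set; gray points lie outside the block. Above a signal of 115 the chloroplast points have a median of 0.378 and the gray ones 0.187; most mitochondrial points lie at dim signals, where the pseudocount damps the spread.

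The extra spread lay mostly within the estradiol arrays. In the brightest bin the median standard deviation of the chloroplast probe sets was 0.236 over the 3 mock arrays and 0.374 over the 3 estradiol arrays, and 32 of 46 were more variable with estradiol. Outside the block the same medians were 0.167 and 0.174, and 2935 of 5633 were more variable with estradiol. Leaving out estradiol replicate 3 gave 0.271 for chloroplast and 0.162 for other bright probe sets, a ratio of 1.68. Over all alternatives run the ratio lay between 1.68 and 2.28.

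The genes with the widest spread had 1 low estradiol array. For cemA, which encodes a protein of the chloroplast envelope, the signals were 314, 307 and 184 in mock against 391, 484 and 83.7 with estradiol. Estradiol replicate 3 was the lowest array and estradiol replicate 2 the highest, so the estradiol range spans that of mock. For atpA, the gene of the alpha subunit of the ATP synthase, they were 312, 402 and 311 in mock against 434, 706 and 127 with estradiol. The same array was lowest and the same highest. For ycf4, an assembly factor of photosystem I, they were 115, 121 and 51.0 in mock against 121, 136 and 31.6 with estradiol, and mock replicate 3 was low as well. The within-group standard deviations of these 3 genes were 0.94, 0.86 and 0.77 on the log2 scale. For psbM they were 2397, 3928 and 4051 in mock against 4249, 892 and 2617 with estradiol, and here estradiol replicate 2 was the low array (standard deviation 0.86). For rps2, which encodes a ribosomal protein, the low array was again estradiol replicate 3, with 73.1 against 127 to 251 on the others.

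Other chloroplast genes stayed close together on the same arrays. For psaB, which encodes a core protein of photosystem I, the signals were 1842, 1918 and 1866 in mock against 1687, 1785 and 1915 with estradiol, with a standard deviation of 0.07. For ndhI, of the NDH complex, they were 2380, 2945 and 2526 in mock against 2104, 2234 and 2305 with estradiol, with 0.12. These 2 genes did not show the low estradiol replicate 3 of cemA and atpA.

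Single arrays carried most of the large departures. A chloroplast probe set over 2-fold away from the mean of the other 5 arrays, on the log2(signal + 16) scale, was found 0, 1 and 0 times on mock replicates 1, 2 and 3 and 0, 6 and 13 times on estradiol replicates 1, 2 and 3. Outside the block the same departure was made by 0.23% to 0.82% of probe sets per array, at all levels of signal. Of those 22596 probe sets 7737 had a mean signal under the pseudocount, which damps departures, so brightness is not matched in this contrast. On estradiol replicate 3 the departure was downward for 12 of the 13, and 244988_s_at, which lists both copies of a chloroplast gene, went furthest (-2.09 log2 units; 820, 1096 and 798 in mock, 1126, 855 and 205 with estradiol). The exception was atpF, another ATP synthase gene, with 99.4, 108 and 110 in mock and 122, 97.7 and 242 with estradiol. On estradiol replicate 2 it was upward for 5 of 6, for psbA, atpA, ndhJ, cemA and 244940_at, and downward for psbM.

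**Figure D2:**
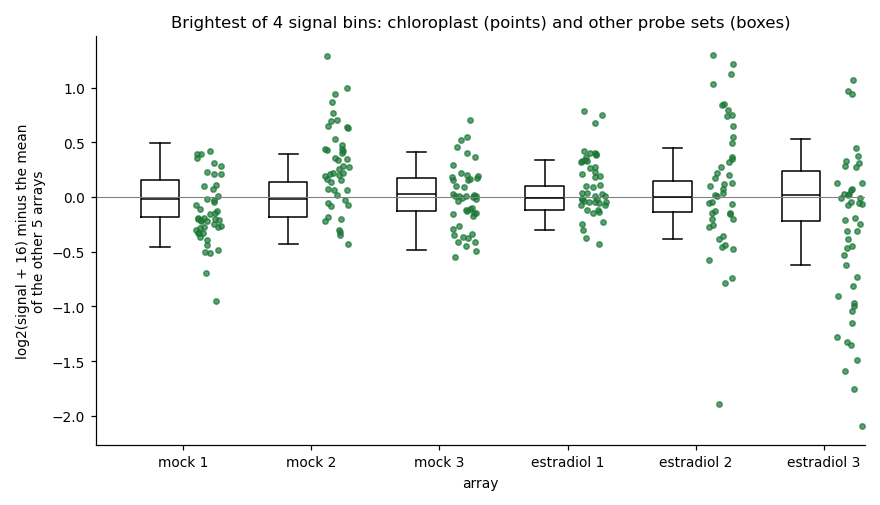
Log2(signal + 16) on each array minus the mean of the other 5 arrays, for probe sets of the brightest of 4 bins: points are the 46 chloroplast probe sets, and boxes (median, quartiles, whiskers at the 5th and 95th percentiles) the 5633 probe sets outside the block. The standard deviation of the chloroplast points was 0.597 on estradiol replicate 2 and 0.723 on estradiol replicate 3, against 0.270 and 0.386 for the others.

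Estradiol replicate 3 was the lowest of the 6 arrays for 32 of the 77 chloroplast probe sets (41.6%) and for 22.6% of the probe sets outside the block. The chloroplast share was 42.9% after quantile normalization and 39.0% when arrays were scaled to the median of the other probe sets. Its raised ratios of 3' to 5' signal were given above, and the part of RNA length in these low signals was not tested. Estradiol replicate 2 had the lowest signals of the hybridisation controls (bioD 1216, cre 3717) and estradiol replicate 3 the highest (bioD 2033, cre 6418). The remaining arrays gave 1537 to 1675 for bioD and 4654 to 5403 for cre. The part of hybridisation was not tested either.

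Genes next to each other on the chloroplast genome did not always depart alike. The neighbours psaI, ycf4, cemA and petA stood at 0.29, -1.33, -1.76 and 0.02 log2 units on estradiol replicate 3, relative to the other arrays. The genes atpA, atpF and atpH stood at -1.59, 1.07 and -0.91. By contrast psbJ, psbL, psbF and psbE, which encode small subunits of photosystem II and lie side by side, were all low there (-0.62, -1.33, -1.04 and -1.28). Over 56 pairs of neighbours among the 57 single-gene chloroplast probe sets above the median signal of all probe sets the correlation of this departure was 0.02 on estradiol replicate 3 and -0.04 on estradiol replicate 2. Dim probe sets and those listing both copies of a gene were left out, so some of these pairs are not adjacent genes. Over the same 57 probe sets the departures on the 2 arrays correlated at -0.24. These are descriptions across probe sets that share an array, and each departure is measured against a mean that contains the other array.

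The question of the comparison was which transcripts differ soon after induction, and 0 of the 150 members passed limma's adjusted p of 0.05, against 26 of all 22746 probe sets (0.114%). The smallest adjusted p of a member was 0.282, for 245037_at, a dim probe set with no gene listed (13.2, 12.9 and 8.80 in mock; 0.723, 3.56 and 4.37 with estradiol). At an unadjusted p under 0.05 there were 15 of 150 members (10.0%), against 8.54% of all probe sets, so the block lay near the background. Among the 77 chloroplast probe sets there were 8, and among the 13 mitochondrial ones 2. Differences, estradiol minus mock on the log2(signal + 16) scale, ran from -0.75 to 0.95 over the block. None exceeded 1 in size, where 134 of all probe sets did. The median difference was -0.06 for the block, -0.06 for chloroplast, -0.09 for mitochondrial and -0.03 for all probe sets. Without estradiol replicate 3 the chloroplast median was 0.06.

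A missed threshold does not show that transcripts stayed level. The 95% interval of the difference lay within 1 log2 unit either way for 55 of the 77 chloroplast probe sets (71.4%), for all 13 mitochondrial ones and for 95.7% outside the block. The interval reached to a median of 0.563, 0.293 and 0.344 log2 units on either side of the difference. For 22 chloroplast probe sets a 2-fold change on that scale therefore lay inside the interval. Most mitochondrial members are dim, and there the pseudocount damps both the difference and its interval. Their narrow intervals therefore do not exclude a 2-fold change of the signal itself. For ccmFN2 the difference was -0.28, and -1.18 with a pseudocount of 1. The estradiol arrays were higher with no overlap in 5 of 150 members, against 5.79% of all probe sets: rpoC1, rpl20, ccsA, ndhF and 244992_s_at. They were lower with no overlap in 11 members, against 7.74%: ndhI, the mitochondrial genes nad4L, nad6, ccmFN2 and matR, 2 genes of chromosome 2 and 4 probe sets with no gene listed.

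**Figure D3:**
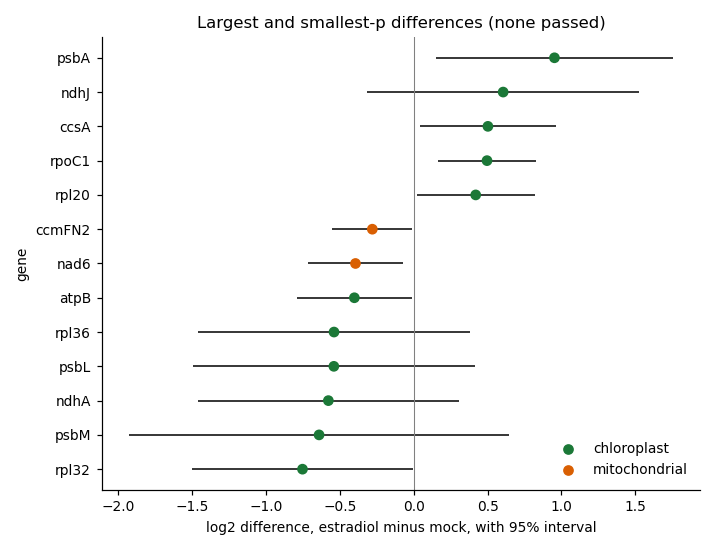
Log2 difference (estradiol minus mock, on the log2(signal + 16) scale) with its 95% interval for the genes with the largest differences or the smallest p in each direction. The point furthest right is psbA at 0.95 and the lowest is rpl32 at -0.75; none of the 13 passed the adjusted threshold.

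For photosystem II, which splits water, 15 of 16 listed genes were measured. Of these 1 had a positive and 14 a negative difference, with a median of -0.37. Over all probe sets 42.9% were positive, with a median of -0.03. All 15 lay above the median signal of all probe sets. Of the 11290 such probe sets outside the block 5532 were positive, with a median of -0.005. None of the 15 passed the threshold, and estradiol replicate 3 was the lowest array for 10 of them. Without that array 12 of 15 were negative with a median of -0.12, and with array weights the median was -0.15. The exception in sign was psbA, which encodes the D1 protein of the reaction centre: 129, 190 and 183 in mock and 187, 468 and 424 with estradiol. Estradiol replicates 2 and 3 were above every mock array, and estradiol replicate 1 fell within the mock range. The group means were 167 ± 33.0 and 360 ± 151 (SD, n = 3 each), a difference of 0.95 ± 0.34 (SE) with a limma adjusted p of 0.525. The gene of its partner D2, psbD, gave 112, 142 and 80.5 in mock and 100, 120 and 60.4 with estradiol, a difference of -0.23. The groups overlap there. The signals of psbE, which encodes part of cytochrome b559, were 951, 855 and 843 in mock against 917, 839 and 353 with estradiol. Its difference of -0.43 came with 1 low array, estradiol replicate 3. The small subunit genes psbK (1947, 2469 and 1698 in mock; 1690, 1842 and 968 with estradiol) and psbI (1096, 2220 and 1185; 1109, 1284 and 1068) had differences of -0.47 and -0.30 with overlapping groups. For psbM the difference was -0.64, and without estradiol replicate 2 it was -0.01.

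Genes of photosystem I, which reduces ferredoxin, were measured for 7 of 7, with 4 positive and 3 negative differences and a median of 0.01, or 0.23 without estradiol replicate 3. The core gene psaA gave 56.2, 51.1 and 34.3 in mock and 62.0, 57.1 and 17.6 with estradiol, a difference of -0.12. The small subunit gene psaI gave 191, 177 and 218 in mock and 254, 209 and 257 with estradiol, a difference of 0.28, and only mock replicate 3 reached into the estradiol range. Another, psaJ, gave 517, 755 and 559 in mock and 582, 741 and 1208 with estradiol, a difference of 0.41 in which estradiol replicate 3 was high. For the cytochrome b6f complex, which passes electrons between the photosystems, 6 of 6 genes were measured, 4 positive and 2 negative, with a median of 0.08, or -0.07 without mock replicate 1. Its gene petB gave 956, 1211 and 1087 in mock and 1218, 918 and 1118 with estradiol. The gene of cytochrome f, petA, gave 536, 658 and 493 in mock and 560, 658 and 584 with estradiol, a difference of 0.10. The groups overlap in both genes. For petB the group means were both 1085, with SDs of 128 and 153 (n = 3 each).

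For the ATP synthase 6 of 6 genes were measured, 2 positive and 4 negative, with a median difference of -0.14. The bright gene atpB gave 5662, 5659 and 4137 in mock and 4307, 3358 and 3960 with estradiol. Mock replicate 3 lay among the estradiol arrays. The group means were 5153 ± 880 and 3875 ± 480 (SD, n = 3 each), a difference of -0.40 ± 0.16 (SE) with a limma adjusted p of 0.577. Its neighbour atpE gave 5159, 4965 and 4026 in mock and 4267, 3131 and 5146 with estradiol, and the groups overlap. For the NDH complex, which takes part in cyclic electron flow, 10 of 11 genes were measured, 5 in each direction, with a median of -0.01. There ndhJ had 71.6, 43.4 and 26.0 in mock and 55.0, 141 and 52.9 with estradiol, a difference of 0.61 that rested on estradiol replicate 2 and was 0.22 without it. The gene ndhA had 692, 1170 and 790 in mock and 748, 792 and 313 with estradiol, a difference of -0.58 that was -0.16 without estradiol replicate 3. For rbcL, the large subunit of Rubisco, the signals were 190, 205 and 148 in mock against 233, 178 and 238 with estradiol, a difference of 0.24.

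**Figure D4:**
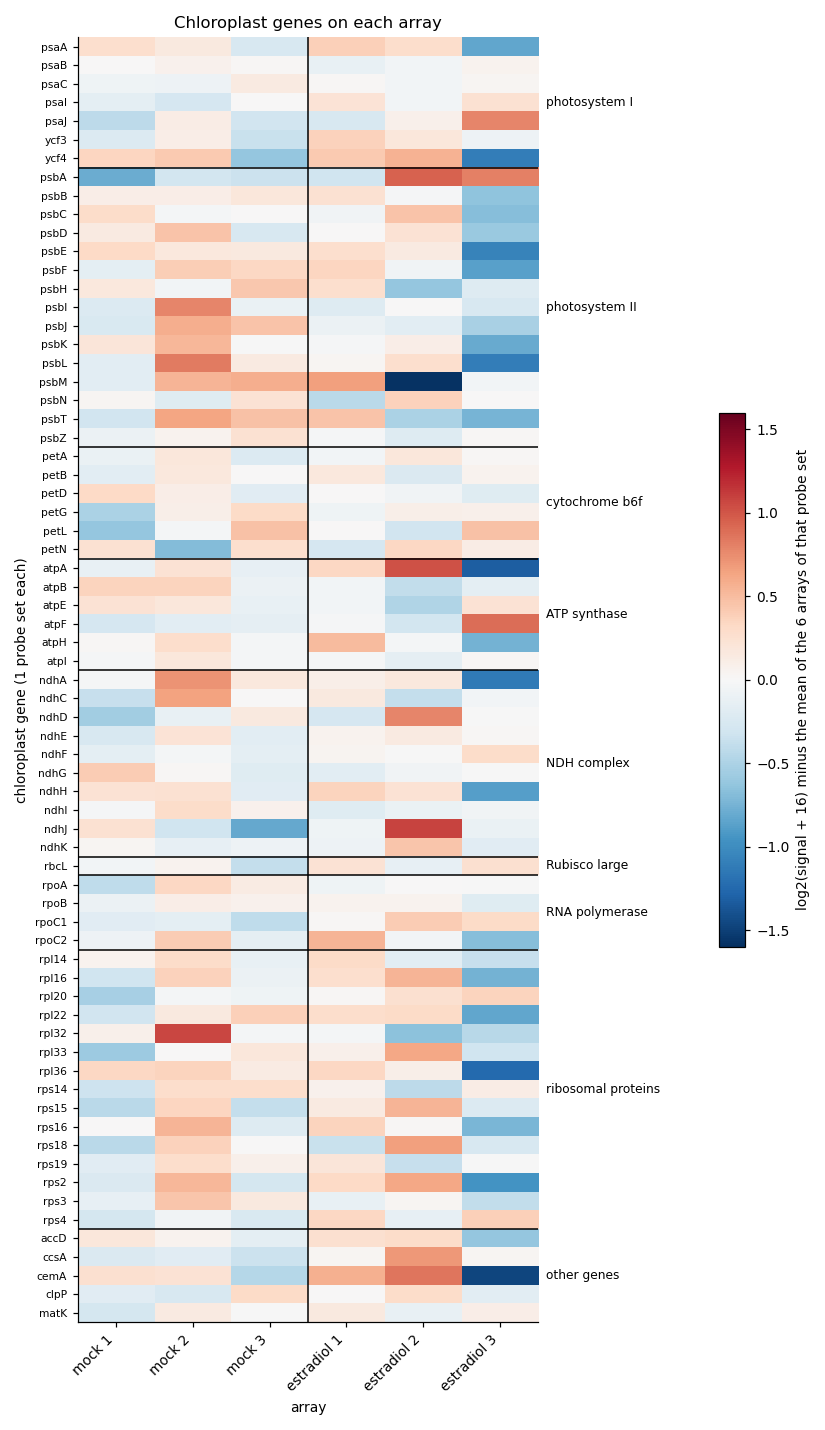
Log2(signal + 16) on each array minus the mean of the 6 arrays, for the 69 chloroplast genes with a probe set of their own, ordered by the role of their product; red is above and blue below that mean. The deepest blue is psbM on estradiol replicate 2, the column of estradiol replicate 3 holds dark blues (cemA, atpA) beside reds (atpF, psaJ, psbA), and psaB is pale throughout.

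All 4 genes of the plastid-encoded RNA polymerase were measured, 1 positive and 3 negative. The largest difference was that of rpoC1, which encodes a catalytic subunit: 106, 108 and 87.9 in mock and 124, 168 and 155 with estradiol. Each estradiol array lay above each mock array. The group means were 101 ± 11.2 and 149 ± 22.4 (SD, n = 3 each), a difference of 0.50 ± 0.14 (SE) with a limma adjusted p of 0.421. In the same operon rpoB (5.71, 9.01 and 8.47 in mock; 8.19, 8.07 and 4.36 with estradiol) and rpoC2 (33.7, 53.8 and 31.7; 60.8, 35.0 and 16.9) had overlapping groups and differences of -0.06 and -0.12. The gene of the alpha subunit, rpoA, gave 673, 1136 and 980 in mock and 858, 904 and 894 with estradiol, all 3 estradiol arrays inside the mock range. Genes known to be read by the nuclear-encoded polymerase alone were measured for 4 of 5, with 1 positive and 3 negative and a median of -0.05. Without estradiol replicate 3 all 4 were positive with a median of 0.22, and with array weights 3 of 4 were, with 0.13. Of the nuclear genes of organelle transcription, the 6 sigma factors and 12 polymerase-associated proteins have no probe set named for them alone in the annotation used. That annotation lists no gene for 8730 of the 22746 probe sets tested. RPOTMP, a phage-type polymerase and the 1 measured of 3 listed, had a difference of -0.03 at a mean signal of 14.2. MTPNPASE, a mitochondrial RNA-degrading phosphorylase and the 1 measured of 2 listed, had -0.01 at 13.1.

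Chloroplast ribosomal protein genes were measured for 15 of 21, with 6 positive and 9 negative differences, a median of -0.12 and none past the threshold. Without estradiol replicate 3, which was the lowest array for 7 of them, the median was 0.17. The lowest difference of all chloroplast genes was that of rpl32: 718, 1440 and 660 in mock and 662, 422 and 492 with estradiol. Mock replicate 2 was high, and estradiol replicate 1 lay just above mock replicate 3. The difference was -0.75 ± 0.31 (SE) with a limma adjusted p of 0.581, and it was -0.40 without mock replicate 2. For rpl20 the signals were 38.8, 61.3 and 59.5 in mock against 64.01, 78.5 and 85.1 with estradiol, groups that do not overlap, and the difference was 0.42 (adjusted p = 0.567), or 0.26 without mock replicate 1. For rps4 they were 628, 733 and 643 in mock against 963, 699 and 996 with estradiol, a difference of 0.39 (adjusted p = 0.579) in which estradiol replicate 2 lay within the mock range. For rpl36 they were 471, 482 and 408 in mock against 474, 400 and 148 with estradiol, a difference of -0.54 that was -0.05 without estradiol replicate 3.

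Of the other listed chloroplast genes 5 of 12 were measured. The gene ccsA, which encodes a protein of haem attachment to cytochrome c, gave 470, 488 and 435 in mock and 566, 910 and 565 with estradiol. No estradiol array fell to the mock range, estradiol replicate 2 was furthest above it, and the difference was 0.50 (limma adjusted p = 0.555), or 0.28 without that array. The protease gene clpP gave 1048, 999 and 1477 in mock and 1200, 1461 and 1055 with estradiol, a difference of 0.08. The maturase gene matK gave 309, 417 and 377 in mock and 423, 345 and 407 with estradiol, a difference of 0.09. Both sets of groups overlap. Of the 8 probe sets that list both copies of a gene, 244992_s_at had groups that do not overlap: 920, 842 and 880 in mock and 1007, 1776 and 1308 with estradiol, a difference of 0.59 (adjusted p = 0.512).

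Most mitochondrial members were dim, and 9 of 13 had a negative difference. So did 12992 of all 22746 probe sets. Outside the block it was 3555 of 5652 in the dimmest of 4 bins and 3588 of 5654 in the next, so the mitochondrial count lay near the background. The mitochondrial median of -0.09 was 0.03 with mock replicate 3 as the only control. It was 0.01 over the 4 members kept by a filter at the median signal. Of 9 listed genes of complex I, which oxidises NADH, 5 were measured in the block. Its genes nad1, nad2 and nad5 are listed outside the block and were not counted. Of the 5 in the block 2 were positive and 3 negative, with a median of -0.25 and none past the threshold. That median was -0.15 without mock replicate 1, -0.05 with mock replicate 3 as the only control and -0.41 with a pseudocount of 1. The largest difference was that of nad6: 19.2, 23.7 and 17.9 in mock and 8.38, 16.2 and 10.6 with estradiol. The groups do not overlap. Their means were 20.3 ± 3.00 and 11.7 ± 4.06 (SD, n = 3 each), a difference of -0.39 ± 0.14 (SE) with a limma adjusted p of 0.515. The gene nad4 gave 41.0, 80.6 and 37.3 in mock and 60.1, 80.8 and 47.5 with estradiol, a difference of 0.22 with overlapping groups. For nad9 the signals were 33.9, 27.6 and 24.8 in mock against 19.5, 26.7 and 17.9 with estradiol, a difference of -0.26. The gene cox2 was the 1 gene of cytochrome c oxidase measured in the block, while cox1 is listed outside it. Its signals for cox2 were 44.6, 36.1 and 18.5 in mock against 25.5, 26.8 and 18.1 with estradiol. Mock replicate 3 lay with the estradiol arrays, and the difference was -0.28.

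Genes of cytochrome c maturation, which attach haem to the carrier, were measured for 4 of 5, 1 positive and 3 negative, with a median of -0.05. For nad4L, in complex I again, the signals were 28.8, 23.6 and 18.4 in mock against 15.7, 18.1 and 17.9 with estradiol, a difference of -0.25, with mock replicate 3 just above estradiol replicate 2. The brightest maturation gene, ccmFN1, gave 88.8, 85.2 and 98.8 in mock and 90.3, 107 and 85.4 with estradiol, a difference of 0.04. The gene ccmFN2 gave 7.67, 6.96 and 3.47 in mock and 0.996, 2.76 and 2.52 with estradiol, groups that do not overlap. Its difference was -0.28 (limma adjusted p = 0.573), and all its signals lie below the pseudocount, where the log2 scale understates a change. The gene mttB, of a protein translocase, gave 29.7, 32.6 and 34.3 in mock and 34.8, 47.4 and 34.3 with estradiol, a difference of 0.18. No member that lists 1 gene stands for cytochrome b, the mitochondrial ATP synthase or the mitochondrial ribosome.

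**Figure D5:**
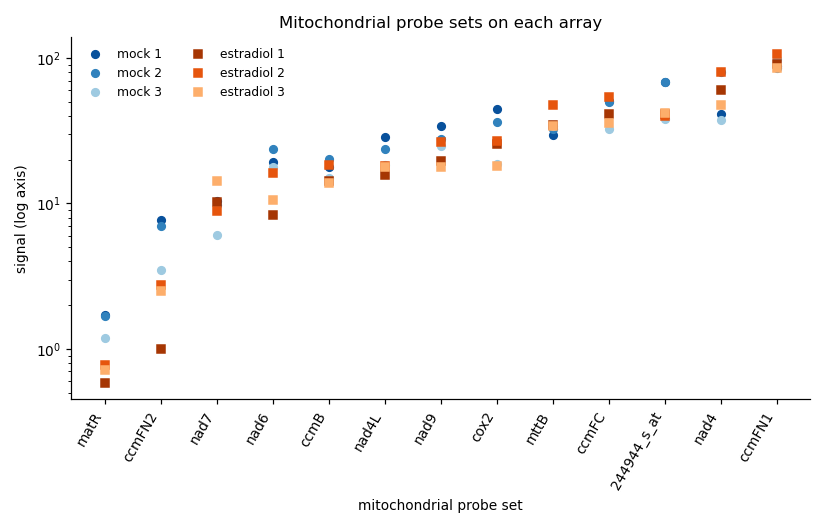
Signal on a log axis for the 13 mitochondrial probe sets, ordered by mean signal, with blue circles for the 3 mock arrays and orange squares for the 3 estradiol arrays. In 11 of the 13 the circles of mock replicates 1 and 2 both lie above that of mock replicate 3.

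The mock arrays split on the mitochondrial genes. Mock replicates 1 and 2 both lay above mock replicate 3 in 11 of the 13 mitochondrial members (84.6%), in 32 of 77 chloroplast ones (41.6%) and in 38.4% of probe sets outside the block. They did so in 8 of the 11 mitochondrial probe sets outside the block (72.7%). Those 2 arrays are the ones with the low 25S rRNA signal, and its part in the split was not tested. The share outside the block is over all levels of signal, while most mitochondrial members are dim. In the second-dimmest of the 4 bins mock replicate 2 was the highest array for 34.3% outside the block and mock replicate 3 for 11.5%. In the brightest bin these shares were 13.6% and 17.6%. The part of brightness in the split was not tested either. The 11 outside the block, which list nad1, nad2, nad5 or cox1, had a median difference of -0.12, and none had an unadjusted p under 0.05.

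Of the 10 chromosome 2 genes 3 had a positive and 7 a negative difference, and 0 passed the threshold. AT2G26500 gave 4639, 4504 and 4125 in mock and 3741, 3434 and 4046 with estradiol, groups that do not overlap, with a difference of -0.24. AT2G26630 gave 10.2, 14.4 and 13.5 in mock and 5.06, 6.98 and 6.51 with estradiol, a difference of -0.37 (limma adjusted p = 0.428) at signals below the pseudocount. YAB5 gave 45.5, 40.6 and 39.5 in mock and 37.3, 41.5 and 19.9 with estradiol, with estradiol replicate 3 low. The 5 AT2G07 loci had differences between -0.18 and 0.23. Of the 45 members with no gene listed, 11 lay above the median signal of all probe sets. The brightest, 244979_at, gave 878, 1315 and 980 in mock and 1031, 953 and 377 with estradiol, and 245038_at gave 266, 124 and 159 in mock and 254, 285 and 484 with estradiol. Estradiol replicate 3 was the lowest array of the first and the highest of the other.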

How the data were processed

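Whole Arabidopsis seedlings were measured on 6 Affymetrix arrays, 3 mock and 3 estradiol. The authors deposited 1 linear intensity per probe set and array. GCOS and affy are named per the submitters' processing notes, with neither version nor role; how probes were summarised is not stated in the labels. Trimmed by 2%, each array has the same mean of 100.01, so arrays share a scale and a change of total transcript per seedling cannot be seen. The number of arrays limits the precision.

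The 64 control probe sets were left out. Log2(intensity + 16) was fitted in R 4.3.3 by limma 3.58.1 (lmFit, eBayes, group as the only term, two-sided), with Benjamini-Hochberg adjustment over 22746 probe sets and a threshold of 0.05. With 3 arrays a group the smallest exact permutation p is 0.1, so p-values rest on limma's pooled spread. Tables and figures used Python 3.11.15, pandas 2.3.3 and matplotlib 3.10.9. The fit was tested on simulated data.

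Genes came from the platform annotation, updated through Entrez IDs to TAIR10.1: 13513 probe sets have 1 gene, 503 several and 8730 none. The Entrez IDs of the 13 mitochondrial probe sets were not matched, so older symbols were updated by synonym. No coordinates are given because no source used here names the array's genome build, and no sequences were used here. Listed genes without a probe set of their own are called not measured. For organelle genes only probe sets in the block were counted, so such a gene may still have one outside it.

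The rule for the members uses probe set numbers and no values. It was chosen, like the gene lists and tests, with earlier results of these data known. Named were, among members with 1 listed gene, those with the highest and lowest signal in each organelle, the largest differences, the smallest p in each direction, the largest and smallest spread, and up to 3 per role list by signal. The genes psbJ, psbF, psbE, psbD, psaA, atpF, atpH, YAB5, AT2G26500 and AT2G26630 were added to these after their values were seen.

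Replicate numbers were not used as pairs. Arrays with the same number had deviations from group means that correlated at 0.0908, 0.113 and 0.329, the first not over 0.1. All were positive, so these values do not settle whether the numbers mark pairs. Alternatives varied pseudocount, filter, scaling, variance model, array weights, replicate block and arrays; 2 array sets were chosen after seeing the data.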

Additional observations from a re-analysis of the deposited data

How the results depend on the processing

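No member passed the threshold under any of the 17 alternatives run, with a smallest adjusted p between 0.123 (array weights) and 0.883 (mock replicate 3 as the only control). The filters on dim probe sets kept 115 and 83 of the 150 members. The background count of 26 moved to 17 with the replicate block, 43 with arrays scaled to the median of the other probe sets, 97 and 90 with filters at the 25th percentile and at the median, 0 and 11 with a pseudocount of 1 and 64, 51 with a trended and robust variance and 92 with array weights. With 1 array left out it ranged from 0 to 57, and it was 0 and 0 in the array sets without replicate 3 of both groups and with mock replicate 3 as the only control, both added after the data were seen. The replicate block called 0 members as well. It rests on numbers that are not shown to pair the arrays.

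Scale-dependent medians moved with the pseudocount and filter by construction. The median standard deviation of the block was 0.458 with a pseudocount of 1 and 0.134 with 64, that outside the block 0.304 and 0.0973, and that of mitochondrial probe sets 0.320 and 0.0752, and 0.251 over those kept by the filter at the median. The mitochondrial median difference was -0.41 with a pseudocount of 1, 0.03 against mock replicate 3 alone and 0.01 with the filter at the median. The block's median log2 signal was 5.52 and 6.79 with a pseudocount of 1 and 64, and 6.69 and 8.00 with the filters.

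The median difference of the chloroplast probe sets was 0.06 without estradiol replicate 3, 0.06 and 0.01 in the added array sets and 0.03 with array weights, against -0.06 with all arrays, so its sign, like the mitochondrial one, is not settled. With 1 array left out the list medians changed sign for the NDH complex (-0.07 to 0.15), the plastid polymerase (-0.16 to 0.11), the ribosomal proteins (-0.23 to 0.17), cytochrome b6f (-0.07 to 0.13), cytochrome c maturation (-0.16 to 0.01), other chloroplast genes (-0.04 to 0.25) and genes read by the nuclear-encoded polymerase (-0.14 to 0.22). No named difference drawn with its interval changed sign. Those genes were chosen from these same data as the largest or smallest-p differences, so a kept sign says little. With 1 array left out the difference of psbM came down to -0.01 and that of rpl36 to -0.05. Depth is limited here by signal over background, which is not known for the 50 members below a mean signal of 16.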
